A study of Mus musculus with 6 samples.

Results

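Claudin transcripts were followed in biliary epithelial cells, the epithelium that lines the bile ducts, from livers of Control mice (Sox9fl/fl) and Sox9cKO mice (Sox9fl/fl:AlbCre+/-), with 3 RNA sequencing samples in each group. Both genotypes carry floxed alleles of Sox9, a transcription factor gene of the bile duct, and the Sox9cKO mice alone carry Cre recombinase under the albumin promoter, which is active in hepatoblasts, the common precursors of hepatocytes and biliary cells, and in hepatocytes. The labels give no age or sex and do not state that each sample is a separate animal, so p-values measure the spread between these samples only. The 9 claudins Cldn1, Cldn2, Cldn3, Cldn4, Cldn6, Cldn7, Cldn10, Cldn12 and Cldn23 were taken by symbol from a table of 25302 genes, with the endothelial claudin Cldn5 left out, and all 9 were present. All values are normalized reads, for which the reads of a gene were scaled by the sample's size factor, and 3 values in a row stand in the order of replicates 1, 2 and 3.

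Claudins are membrane proteins of the tight junction, the belt that joins neighbouring epithelial cells near their apical side. They polymerise into strands that either seal the space between cells or form channels for ions and water through it. In the bile duct this belt separates bile from the tissue below. Claudin-2 forms channels for small cations and water, and claudin-10 forms ion channels whose charge preference depends on which of alternative first exons is used. Claudin-1 and claudin-3 are mainly sealing claudins, and claudin-7 binds the adhesion molecule EpCAM.

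Cldn10 was the claudin with a called difference, and its promoters are therefore shown first, with that of Cldn4, the claudin with the highest level, beside them. The 250 bases before each start are from RefSeq on GRCm38.p6, 5′ to 3′ on the strand of the gene, and 8 of the 9 claudins had an entry. Capitals mark letters that match the core bound by Sox proteins, searched on both strands as ACAAAG or ACAATG, or with another first letter TCAAAG or TCAATG. The letters ACAAAG and the variant TCAAAG are also the core of TCF and LEF sites. Cldn10 has an upstream start (chr14:118787621-118787870, plus strand), a downstream start (chr14:118854700-118854949, plus strand), and Cldn4 has a single one (chr5:134946935-134947184, minus strand).
Cldn10 upstream: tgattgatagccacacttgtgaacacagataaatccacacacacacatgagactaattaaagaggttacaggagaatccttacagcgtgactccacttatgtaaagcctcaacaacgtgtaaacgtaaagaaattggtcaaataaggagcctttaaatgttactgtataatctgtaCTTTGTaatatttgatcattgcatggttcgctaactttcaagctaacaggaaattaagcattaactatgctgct
Cldn10 downstream: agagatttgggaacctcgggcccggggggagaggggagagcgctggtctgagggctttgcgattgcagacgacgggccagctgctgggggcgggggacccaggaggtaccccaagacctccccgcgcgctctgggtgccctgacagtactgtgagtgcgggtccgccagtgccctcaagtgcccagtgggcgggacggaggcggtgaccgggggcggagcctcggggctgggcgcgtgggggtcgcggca
Cldn4: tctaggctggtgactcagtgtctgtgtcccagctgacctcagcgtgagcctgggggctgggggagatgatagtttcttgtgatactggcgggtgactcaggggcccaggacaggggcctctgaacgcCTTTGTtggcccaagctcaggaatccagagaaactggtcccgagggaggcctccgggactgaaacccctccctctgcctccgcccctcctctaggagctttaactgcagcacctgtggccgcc
The Cldn10 window upstream held 1 match, which begins 74 bases before the start, and the downstream window held none. The base composition of these windows was unlike, at 36% and 72.4% G or C. The Cldn4 window held 1 match as well. Over all 32851 promoters of that length, 39.4% held at least 1 match, and among the 12 promoters of the 8 claudins 5 did, so the letters do not set Cldn10 apart. The letters AACCNGTT, the core bound by grainyhead-like proteins, were in none of the 12 and in 1.79% of all promoters. The deposited table gives 1 value for the gene, and the reads of the upstream and downstream starts of Cldn10 were not separated.

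Between 11883496 and 16191990 reads were assigned to genes in a sample. Sox9, the targeted gene, followed the labels, with 6043 to 6293 normalized reads in Control and 3165 to 3363 in Sox9cKO, which is 53.2% of the Control mean. Epithelial identity was checked with 18 biliary markers, whose summed level was 216503 to 271332 in Control and 203437 to 274291 in Sox9cKO. Of these 18, Krt7 alone was called higher (limma, adjusted p 0.0408) and none lower. Krt7 had 1732 to 2113 normalized reads in Control and 3127 to 5093 in Sox9cKO. With the replicate number as a block, 2 were called higher, Tspan8 among them, and 3 lower, including Spp1 and Pkhd1. Over all tested genes 2.97% were called, and 8.05% with the block. Markers of other cell types were present too. The summed level of 12 endothelial markers ranged from 1600 to 33640 in Control and from 5525 to 34520 in Sox9cKO, lowest in replicate 3 of each group and higher in Sox9cKO within each replicate number. All 12 had a log2 fold change above 0, as did 54.2% of all tested genes. None was called without the replicate block, and Vwf and Egfl7 were called higher with it (limma, adjusted p 0.0420 and 0.0356). The 18 hepatocyte markers summed to 21737 to 34285 in Control and 43825 to 73819 in Sox9cKO, without overlap. Of the 17 tested, 4 were called higher (Apob, Fga, Fgb and Tat), where 2.03% of all tested genes were. A log2 fold change above 0 was found for 13 of these 17. Without Apob the hepatocyte sums overlapped (19495 to 30973 in Control and 26643 to 41254 in Sox9cKO). Without Fga, Fgb or Tat alone they did not overlap. Leaving out Apob, Fga, Fgb, Tat, Csf1r or Msln from these sums was chosen after seeing the data. The 11 leukocyte and erythroid markers summed to 926 to 1106 in Control and 1479 to 1712 in Sox9cKO, with Csf1r called higher, but 8 of the 9 tested had a log2 fold change below 0. Lyz2 was called lower with the replicate block only. Without Csf1r the sums were 129 to 377 in Control and 73.6 to 214 in Sox9cKO. The 8 mesothelial markers summed to 986 to 1085 in Control and 1242 to 2272 in Sox9cKO, with Msln called higher, and without Msln to 618 to 812 and 415 to 615. The 12 mesenchymal markers summed to 3455 to 4216 and 4202 to 5875, with none called. Among all these markers the erythroid gene Hba-a2 alone was at 0 in a sample. The part of these other cells in the claudin values was not tested, and in bulk samples fewer cells of a type cannot be told apart from less RNA per cell.

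The comparison asked which claudins differ between Control and Sox9cKO biliary cells. Cldn10 was nearly absent in Sox9cKO, whereas none of the other 7 tested claudins passed the test. Averaging 10 or more normalized reads, 8 claudins were tested, and 1 was called at an adjusted p under 0.05 (limma, Benjamini-Hochberg over all 17153 genes tested), where 2.97% of all tested genes were called, 2.03% as higher and 0.939% as lower in Sox9cKO. Of these 8, 5 had a log2 fold change above 0 and 3 below, as 54.2% of all tested genes lay above 0. Their median log2 fold change was 0.26, against 0.04 over all tested genes. Cldn10 passed the filter on low values through the Control samples alone, so its being counted among the 8 is not independent of its difference.

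Cldn10 (ENSMUSG00000022132) had 47.9, 46.4 and 54.1 normalized reads in Control and 0.995, 0 and 0 in Sox9cKO. These stem from 57, 50 and 47 reads against 1, 0 and 0 reads, so every Control sample lay far above every Sox9cKO sample. A count of 0 allows up to 3 reads, which is 2.84 normalized reads in Sox9cKO replicate 2 and 3.40 in replicate 3. With size factors taken into account, the 154 Control reads and the single Sox9cKO read give a ratio of 145, with a 95% exact interval of 25.6 to 5754 that covers counting error only. The log2 fold change stood at -5.32 (standard error 0.46) on the log2(value + 1) scale, which understates the change of so low a gene (limma, adjusted p 0.00327). The Sox9 value was 53.2% of its Control mean in the same samples, while Cldn10 stood at 0.670% of its own. For Sox9 too there is 1 value for the gene, and reads of its floxed part were not separated from the rest.

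Removing any 1 of the 6 samples left the log2 fold change between -5.66 and -5.16, and the gene stayed called in all 6 of these fits (limma, adjusted p at most 0.0257). Cldn10 was called under all 15 alternatives in which it had a value.

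**Figure D1:**
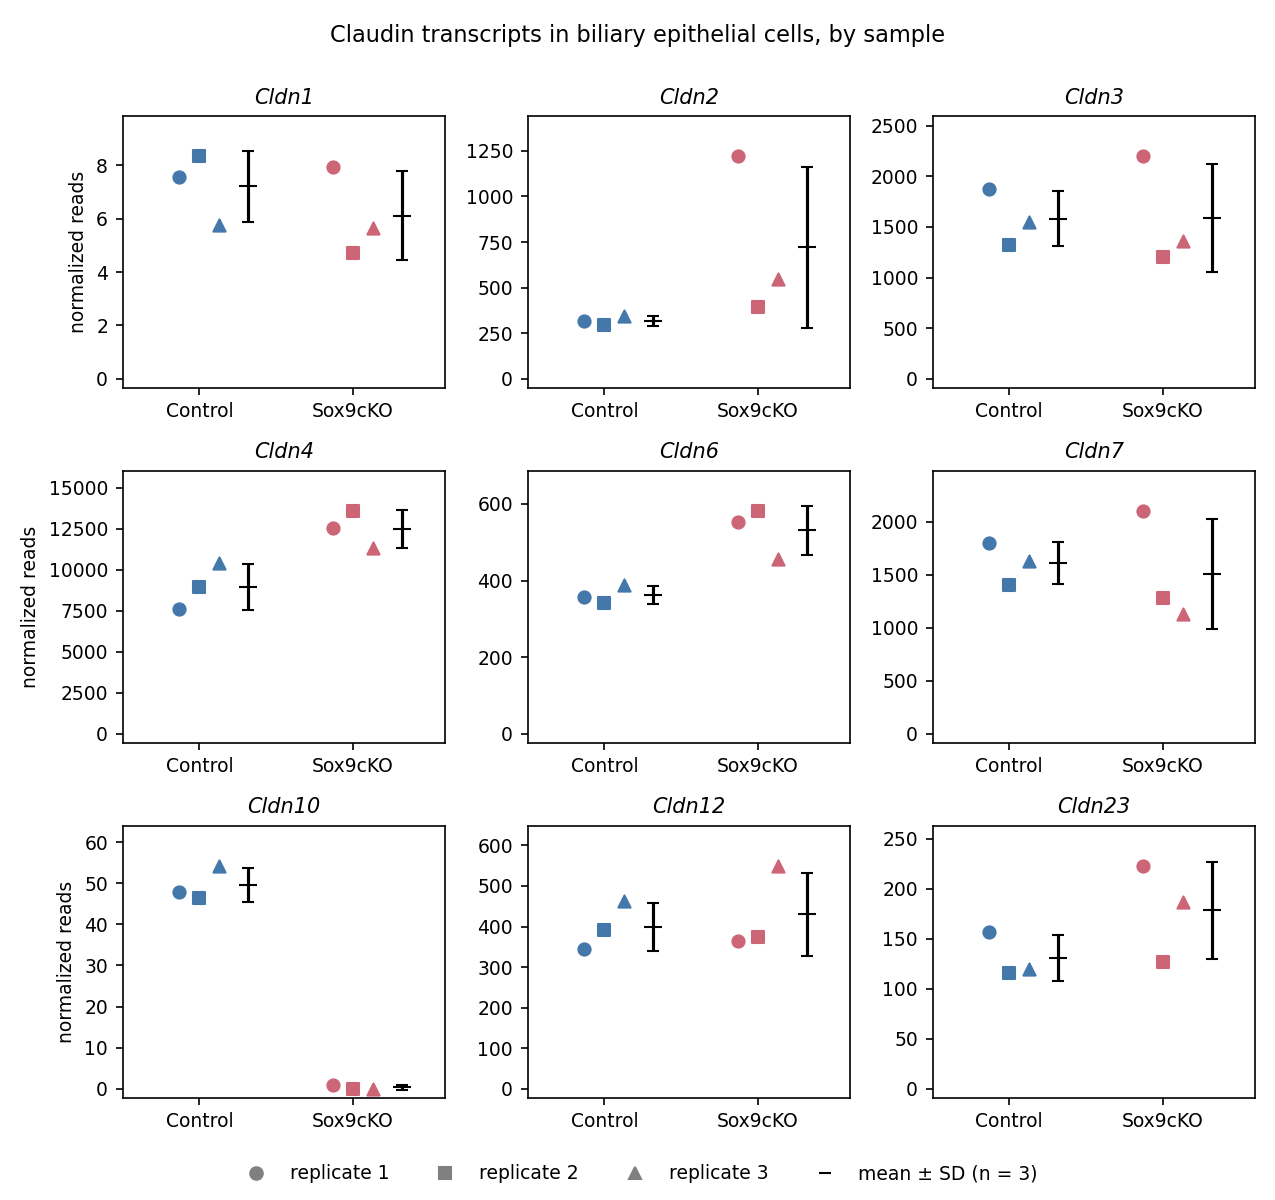
Normalized reads of each of the 9 claudins (vertical axis, linear) in the 3 Control samples (blue) and the 3 Sox9cKO samples (red), with marker shape giving the replicate number and black bars the mean ± SD. Cldn10 lies at 46.4 to 54.1 in Control and at 0.995 or 0 in Sox9cKO, Cldn2, Cldn4 and Cldn6 are higher in all Sox9cKO samples, and the groups of the other claudins overlap.

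Cldn2, the gene of the cation and water channel, had 314, 293 and 346 normalized reads in Control and 1222, 394 and 547 in Sox9cKO. All Sox9cKO samples were above all Control samples, and Sox9cKO replicate 1 was far above the other two. The Control mean was 318 ± 26.3 and the Sox9cKO mean 721 ± 440 (SD, n = 3). The log2 fold change of 1.01 (95% interval 0.12 to 1.90) did not pass the threshold after adjustment (limma, adjusted p 0.223). Without Sox9cKO replicate 1 the log2 fold change was 0.55.

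Cldn4 was the most abundant claudin. Its normalized reads were 7584, 8914 and 10391 in Control and 12545, 13564 and 11300.5 in Sox9cKO. The groups did not overlap, but the highest Control and the lowest Sox9cKO sample, both of replicate 3, lay close together. With means of 8963 ± 1404 and 12470 ± 1134 (SD, n = 3), the log2 fold change was 0.48 (95% interval 0.14 to 0.83), which was not called (limma, adjusted p 0.148).

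Cldn6, a claudin known from embryonic epithelia, had 356, 342 and 387 normalized reads in Control and 553, 581 and 457 in Sox9cKO. Again all Sox9cKO values were the higher ones, with the narrowest gap in replicate 3. Its means were 362 ± 23.2 and 531 ± 64.9 (SD, n = 3). The log2 fold change was 0.55 (95% interval 0.21 to 0.88) and was not called (limma, adjusted p 0.102).

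Groups that did not overlap were thus found for 4 of the 8 tested claudins (Cldn2, Cldn4, Cldn6 and Cldn10), and for 24.2% of all tested genes. DESeq2 on the recovered reads called Cldn2 (adjusted p 0.0380) and Cldn6 (0.0491) in addition to Cldn10, at a background of 7.08% of genes called. With edgeR 2.86% of genes were called. Neither limma nor edgeR called these 2 genes, with or without the replicate number as a block.

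Cldn3 and Cldn7 moved together over the samples and did not separate the groups. Cldn3, a sealing claudin, had 1871, 1323 and 1553 normalized reads in Control and 2201, 1207 and 1361 in Sox9cKO. Cldn7 had 1800, 1400 and 1629 in Control and 2100, 1282 and 1132 in Sox9cKO. In both genes Sox9cKO replicate 1 was the highest of all samples, Control replicate 1 the next, and the groups overlapped. The log2 fold change of Cldn3 was -0.03 with a 95% interval of -0.60 to 0.54 (limma, adjusted p 0.968). For Cldn7 it was -0.14 with an interval of -0.70 to 0.41 (adjusted p 0.810). Changes within these bounds are thus not excluded. The intervals are not adjusted for the number of genes tested, so larger changes could also go uncalled here. In the GRCm38 annotation Wbscr25 overlaps Cldn3 on the opposite strand, and whether the counting used the strand is not given in the sources used here. Wbscr25 had 8.51 to 22.3 normalized reads, far fewer than Cldn3.

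Cldn12, whose protein lacks the tail motif by which most claudins bind scaffold proteins, had 345 to 462 normalized reads in Control and 365 to 549 in Sox9cKO. Both groups had their highest value in replicate 3. The log2 fold change was 0.09 (95% interval -0.38 to 0.56; limma, adjusted p 0.865). Cldn23 had 157, 116 and 120 normalized reads in Control and 223, 127 and 187 in Sox9cKO. Sox9cKO replicate 2 lay inside the Control range and the other two Sox9cKO samples above it, and the log2 fold change of 0.42 (95% interval -0.17 to 1.01) was not called (limma, adjusted p 0.442). It was 0.24 without Sox9cKO replicate 1 and 0.65 without Sox9cKO replicate 2.

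Cldn1, a sealing claudin of skin and liver, was close to the limit of detection. It had 9, 9 and 5 reads in Control and 8, 5 and 5 in Sox9cKO, or 4.73 to 8.35 normalized reads over all 6 samples. Its mean of 6.67 was under the minimum of 10, so it was not tested, and the groups overlapped.

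**Figure D2:**
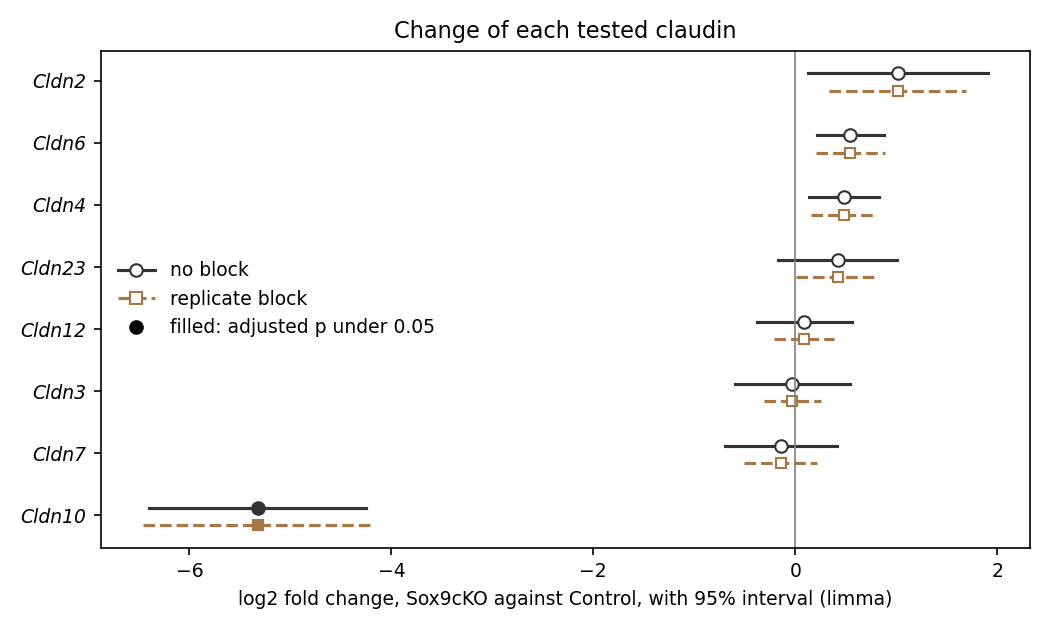
Log2 fold change of Sox9cKO against Control (horizontal axis) with 95% intervals from limma for the 8 tested claudins, without the replicate block (solid, circles) and with it (dashed, squares), where filled symbols mark an adjusted p under 0.05. Cldn10 stands at -5.32 and the other 7 lie between -0.14 and 1.01 with open symbols in both fits.

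Levels of different claudins were compared per kilobase of exon, with lengths from GENCODE M21. In Control, Cldn4 led with 4935 ± 773 normalized reads per kilobase (SD, n = 3). Cldn3 followed with 1257 ± 218 and Cldn7 with 826 ± 103, and the sample ranges of these 3 did not overlap. Cldn6 came next with 210 ± 13.5. Cldn2 (95.6 ± 7.92), Cldn12 (94.5 ± 13.9) and Cldn23 (70.9 ± 12.3) formed a group in which the ranges of neighbours overlapped. Cldn10 at 19.1 ± 1.58 and Cldn1 at 1.49 ± 0.275 were the lowest, each clear of its neighbour above.

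In Sox9cKO the order per kilobase was the same except that Cldn10 fell below Cldn1 (0.128 ± 0.222 against 1.26 ± 0.344). The levels were 6867 ± 624 for Cldn4, 1262 ± 425 for Cldn3, 773 ± 267 for Cldn7, 308 ± 37.7 for Cldn6, 217 ± 132 for Cldn2, 102 ± 24.5 for Cldn12 and 96.7 ± 26.3 for Cldn23 (SD, n = 3). Here the ranges of Cldn3 and Cldn7, of Cldn6 and Cldn2, of Cldn2 and Cldn12, and of Cldn12 and Cldn23 overlapped. With the length of the longest transcript, a choice made after seeing the data, Cldn12 and Cldn2 changed places in Control.

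The make-up of the 9 claudins followed from these levels. Cldn4 accounted for 59.0% to 68.8% of the summed level per kilobase in Control and for 65.0% to 77.0% in Sox9cKO. Cldn3 gave 14.7% to 21.0% in Control and 9.88% to 16.4% in Sox9cKO, and Cldn7 gave 10.1% to 13.1% and 6.79% to 10.1%. These ranges overlapped between the groups. The share of Cldn6 did not overlap, at 2.70% to 2.93% in Control and 3.02% to 3.48% in Sox9cKO. Nor did the summed level itself, at 7075 to 8317 normalized reads per kilobase in Control and 8547 to 10632 in Sox9cKO. Shares and sums were not tested. The share of Cldn10 was 0.251% to 0.261% in Control and at most 0.00361% in Sox9cKO, so the claudin with the largest change was a minor transcript of the family in both groups.

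**Figure D3:**
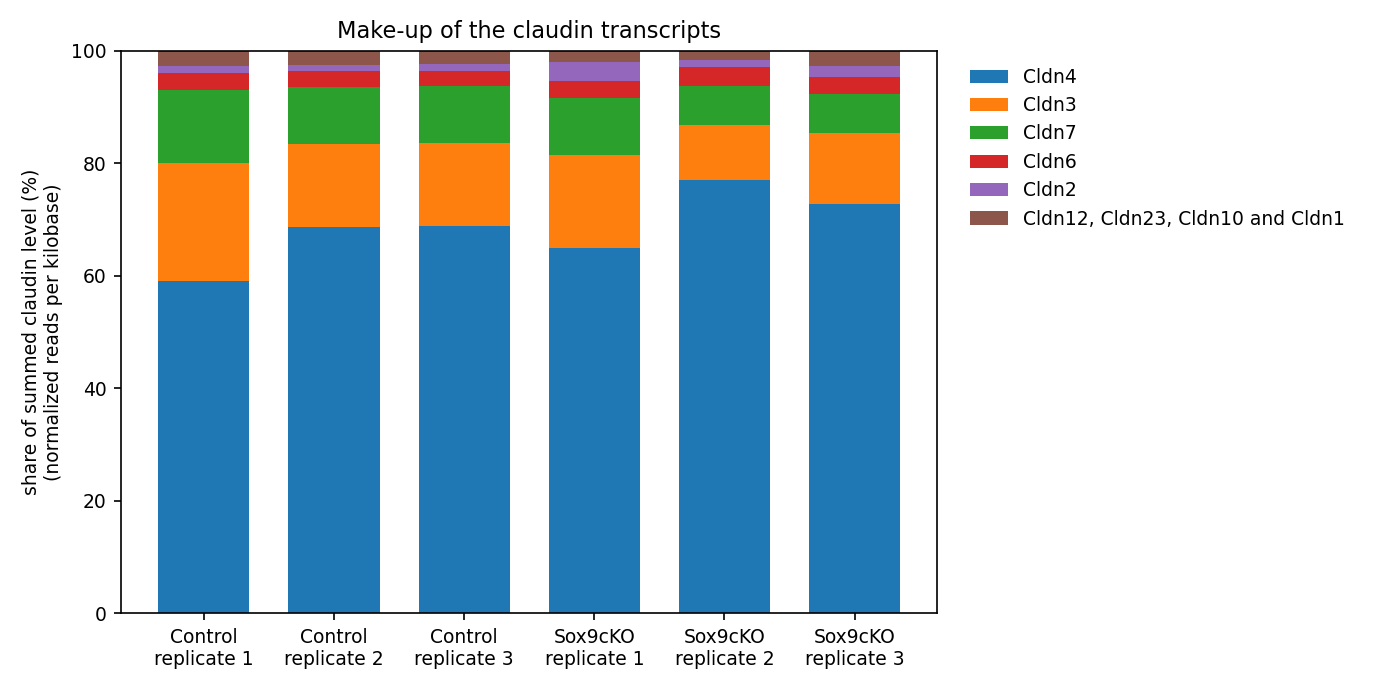
Share of each claudin (percent, vertical axis) in the summed normalized reads per kilobase of the 9 claudins, with 1 bar for each of the 6 samples and Cldn12, Cldn23, Cldn10 and Cldn1 joined in 1 band. Cldn4 makes up 59.0% to 77.0% of every bar, Cldn3 and Cldn7 most of the rest, and the widest Cldn2 band is that of Sox9cKO replicate 1 at 3.46%.

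Pairs of claudins were compared by the root mean square difference of their centred log2 profiles over the 6 samples, as a description. Of the 28 pairs of tested claudins, Cldn4 and Cldn6 were the most alike (0.12), followed by Cldn3 and Cldn7 (0.12). Cldn3 and Cldn4 lie next to each other in the genome, yet their difference was 0.45, in place 14 of the 28. The 7 pairs with Cldn10 had the largest differences, from 2.59 to 3.17. As the profiles span both groups, these largely restate its log2 fold change of -5.32.

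Among all tested genes with a proper symbol, those with a profile most like that of Cldn10 were Angptl1 (difference 0.54), Capn6 (0.60) and C2cd4b (0.63), over the same 6 samples. Angptl1, which encodes a secreted angiopoietin-like protein, had 63.1 to 166 normalized reads in Control and 2.26 to 3.98 in Sox9cKO. Capn6, of the calpain family, had 119 to 175 and 2.84 to 12.9. C2cd4b had 98.4 to 236 and 6.62 to 7.96. Since they were chosen for their likeness to Cldn10 in these samples, their lower values in Sox9cKO are a description. Unlike Cldn10, none of them had 0 reads in any sample.

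The other claudins of the table were also read. Of 28 further claudins listed, 9 were in the table, 5 were tested and none was called with limma, with or without the replicate block, or with edgeR. Cldn8, a sealing claudin of tight epithelia, had 160 to 232 normalized reads in Control and 111 to 248 in Sox9cKO. Its log2 fold change was -0.03 (95% interval -0.82 to 0.75; limma, adjusted p 0.972). The endothelial Cldn5 ranged from 17.3 to 538 in Control and from 65.7 to 483 in Sox9cKO, lowest in replicate 3 of each group. The summed endothelial markers were lowest there too, but Cldn5 is itself in that sum. Cldn15 had 20.2 to 44.5 normalized reads over all samples, Cldn34c1 10.1 to 16.1 and Cldn11 5.97 to 13.8, and both groups overlapped in each of them. The remaining 4 (Cldn13, Cldn14, Cldn18 and Cldn19) had means under 10 and were not tested.

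Claudins act with other proteins of the junction, and lists of these and of regulators were compared in the same fit. In that fit 2.03% of all tested genes were called higher and 0.939% lower, the shares against which the counts below stand. Of 13 tested membrane partners, Jam3 was called higher in Sox9cKO and none lower. Jam3, a junctional adhesion molecule also made by non-epithelial cells, had 47.9, 39.0 and 38.0 normalized reads in Control and 188, 114 and 148 in Sox9cKO. Every Sox9cKO value was more than that of any Control sample (log2 fold change 1.80, standard error 0.25; limma, adjusted p 0.0117), and without Control replicate 3 the call was lost (adjusted p 0.0549). Occludin (Ocln, -0.16), the adhesion molecule F11r (-0.01), Epcam (-0.16) and the receptor of tricellular junctions Lsr (0.34) had the log2 fold changes given and were not called (limma, adjusted p 0.406 to 0.978). Their levels were high, at 2967 to 4066 normalized reads for Ocln and 5501 to 8249 for Epcam.

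Among 33 tested scaffold and polarity genes, 1 was called higher and none lower. This was Micall2, whose protein works with the small GTPase Rab13 in carrying claudins to the junction. It had 715, 982 and 888 normalized reads in Control and 1724, 1861 and 1365 in Sox9cKO, without overlap (log2 fold change 0.94, standard error 0.17; limma, adjusted p 0.0357). It stayed called in only 2 of the 6 fits that left out 1 sample, with adjusted p-values up to 0.134. The scaffold genes Tjp1 (7553 to 8896 normalized reads over all samples) and Cgn (3588 to 4722) had log2 fold changes of 0.09 and -0.01 with 95% intervals of -0.18 to 0.35 and -0.34 to 0.33. None of the 7 surface proteases and inhibitors that act on EpCAM and claudin-7 was called.

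Of 19 tested transcription factors known to act on claudin genes, 1 was called lower and none higher. Ovol2, a repressor that helps to keep cells epithelial, had 49.6, 29.7 and 44.9 normalized reads in Control and 10.9, 11.3 and 14.7 in Sox9cKO. The groups did not overlap (log2 fold change -1.65, standard error 0.32; limma, adjusted p 0.0458), but the call was lost in each of the 6 fits that left out 1 sample, with adjusted p-values up to 0.203. Grhl2, a grainyhead-like activator known to act on Cldn3 and Cldn4, had 1521, 995 and 1389 normalized reads in Control and 706, 610 and 820 in Sox9cKO. All Sox9cKO values were the lower ones, and the log2 fold change of -0.86 was not called without the replicate block (limma, adjusted p 0.0691) and was called with it (0.0100). In the same samples Cldn3 had a log2 fold change of -0.03 and Cldn4 of 0.48.

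Taken over the 4 lists of partners, scaffolds, proteases and transcription factors, 3 of 72 tested genes (4.17%) were called with limma, against 2.97% of all tested genes. With the replicate number as a block, 14 of the 72 (19.4%) were called, against 8.05% of all tested genes, and Cldn10 stayed the called claudin (adjusted p 0.00207). Besides Grhl2, the genes added by the block include 9 that are named here after their values were seen. Higher in Sox9cKO with the block were Tjp3, Cgnl1, Spint1, Spint2 and Hnf4a, with log2 fold changes from 0.46 to 0.75. Lower were Ildr1, Magi1, Pals1 and Ehf, with log2 fold changes from -0.97 to -0.43. For these 9 genes the adjusted p-values of limma lay between 0.0515 and 0.205 without the block and between 0.00910 and 0.0443 with it. Hnf4a, a transcription factor best known from hepatocytes, had 3802 to 6320 normalized reads in Control and 6994 to 10056 in Sox9cKO.

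**Figure D4:**
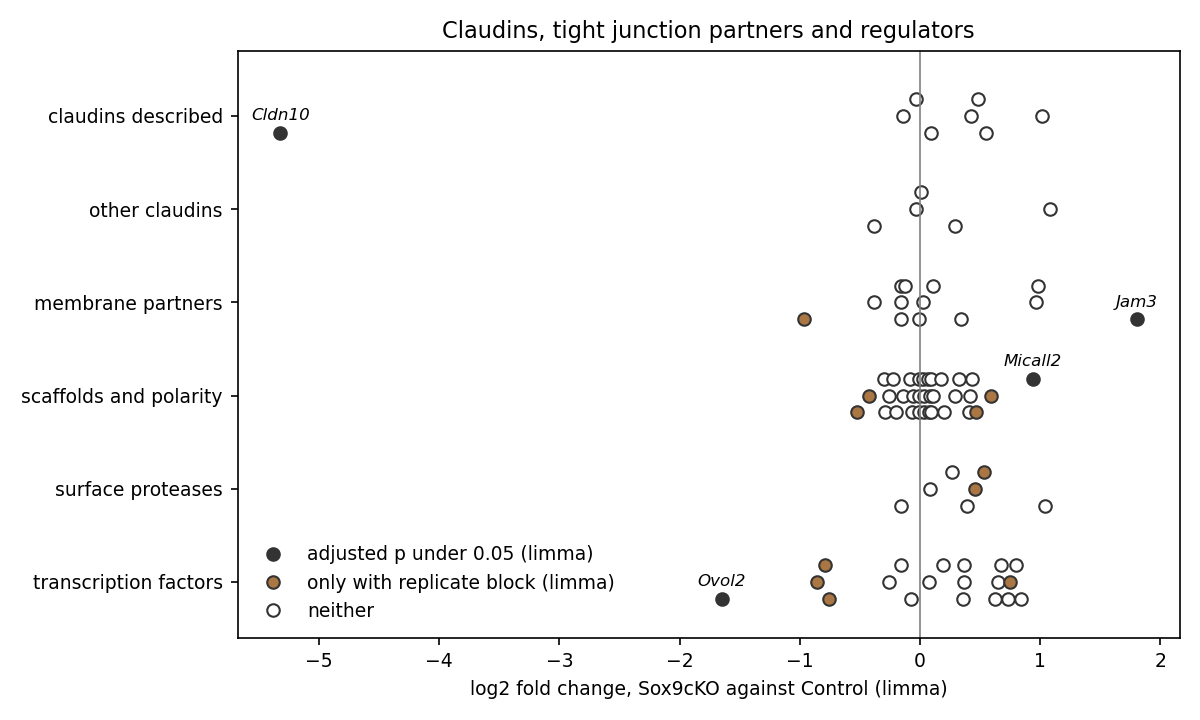
Log2 fold change of Sox9cKO against Control (horizontal axis, limma) for each tested gene of the claudins and of the lists of junction partners and regulators (rows, with points spread vertically for legibility). Black points have an adjusted p under 0.05, brown points only with the replicate block. Cldn10 at -5.32 lies far from all others, and Jam3, Micall2 and Ovol2 are the other black points.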

How the data were processed

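The file deposited by the authors holds a signal for each gene in each sample: reads scaled by the sample's size factor. The submitters' processing notes name DESeq2 1.36.0 and the build GRCm39, and the labels name rRNA depletion, stranded total RNA libraries and molecular identifiers. Aligner, counter, annotation and the use of strand and identifiers are not given in the sources used here. Whole reads were recovered for 100% of values (tolerance 0.001 reads).

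On the log2(value + 1) scale, limma 3.58.1 (R 4.3.3) was fitted to genes averaging 10 or more (intensity trend, two-sided, 95% intervals from the moderated fit, Benjamini-Hochberg, threshold 0.05). edgeR 4.0.16 and DESeq2 1.42.0 on the recovered reads were alternatives. The code of the limma and edgeR fits without a block was tested on simulated data, and that of the DESeq2 and block fits was not. Replicate numbers come from the sample titles. Same-numbered samples deviated together from their group means (correlations across genes 0.207, 0.472 and 0.542). For differently numbered samples of the 2 groups the correlations were -0.437 to 0.048. Calls of limma with the number as a block are therefore given where they differ among the claudins, the junction lists and the markers.

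The members, lists and the rule for named genes were chosen with earlier results of these data known. The rule named all 9 claudins, Sox9, the 3 genes most like each called claudin, at most 4 called genes a list, Tjp1, Ocln, F11r, Cgn, Grhl2, Epcam and Lsr, and other claudins with a mean of at least 10. Lengths and overlaps came from GENCODE M21 on GRCm38 by gene identifier, and no coordinate was moved between builds. The values of 1 listed gene are not reported here. The 95% exact interval of the Cldn10 ratio is Clopper-Pearson.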

Additional observations from a re-analysis of the deposited data

How the results depend on the processing

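The counts of called genes and the log2 fold changes of the claudins, Sox9 and the named junction genes and regulators were recomputed. Marker sums, shares and profile differences were not. There were 16 further fits, of which 6 left out 1 sample. Over these fits and the 8 tested claudins, 118 of 127 values kept their direction and side of the threshold. Cldn10 kept both in all 15 fits that tested it, between -7.80 (pseudocount 0.1) and -3.36 (pseudocount 5). At a minimum mean of 50 it was filtered out and 0 claudins were called, and DESeq2 called 3 claudins. The number of all genes called was 510, and 1214 with DESeq2, 1381 with the replicate block and 1160 with edgeR and the replicate block, each with all 510 among them. It was 200 to 389 when 1 sample was left out, lowest without Control replicate 1. The block changed the call of no tested claudin. Apart from the filter that removed Cldn10, the cause of these shifts was not tested. The median over all tested genes moved from 0.04 to -0.03 with quantile normalization.

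Small differences changed sign. With quantile normalization Cldn12 was -0.0312 and Tjp1 -0.0338, and Cldn15 was -0.09996 with edgeR, -0.0930 with DESeq2 and -0.0506 with edgeR and the block. When 1 sample was left out, log2 fold changes ranged from -0.290 to 0.143 for Cldn3, -0.410 to 0.0358 for Cldn7, -0.0993 to 0.200 for Cldn12, -0.0665 to 0.0306 for F11r, -0.0845 to 0.107 for Cgn, -0.237 to 2.20 for Cldn5, -0.235 to 0.344 for Cldn8 and -0.277 to 0.276 for Cldn15. None of these was called in any fit. The 5 to 9 reads of Cldn1 a sample allow no statement on its change.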
